A study of Homo sapiens with 12 samples.

Results

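HSP90 is the abundant ATP-driven chaperone of the cytosol that holds kinases, steroid receptors and other client proteins in a folded or near-folded state, and cochaperones load clients onto it, set the pace of its ATPase cycle or release the finished protein. Many genes of this machine are read by heat shock factor 1, which binds inverted repeats of the letters GAA (heat shock elements) when proteins misfold. The 9 genes described here are HSP90AA1 and HSP90AB1, which encode the stress-inducible and the constitutive form of cytosolic HSP90, and the cochaperone genes AHSA1, CHORDC1, STIP1, FKBP4, FKBP5, CDC37 and PTGES3. They were chosen by name, and all 9 were found among the 40295 genes of the table, in 10 rows that were summed by symbol. All 9 passed the filter on low counts in each fit.

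All 9 are protein-coding genes, placed here by the GRCh38 annotation. On the minus strand lie HSP90AA1 (ENSG00000080824, chr14:102080742-102139699), CHORDC1 (ENSG00000110172, chr11:90200429-90223077), FKBP5 (ENSG00000096060, chr6:35573585-35728583), CDC37 (ENSG00000105401, chr19:10391133-10420121) and PTGES3 (ENSG00000110958, chr12:56663341-56688408). On the plus strand lie HSP90AB1 (ENSG00000096384, chr6:44246166-44253888), AHSA1 (ENSG00000100591, chr14:77457870-77469472), STIP1 (ENSG00000168439, chr11:64185272-64204543) and FKBP4 (ENSG00000004478, chr12:2794970-2805423).

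RNA-seq was made from 12 libraries in 5 groups. TOV-112D, an ovarian cancer line that carries p53-R175H, was labelled with 3 h of DMSO, UCI-1001 or UCI-1014, with 2 libraries in each group; the study used UCI-1001 at 10 µM, the dose of UCI-1014 in this experiment is not given in the sources used here, and both compounds come from its search for small molecules that restore mutant p53. Saos-2, an osteosarcoma line that lacks p53, gave 3 libraries of the p53-null parental cells and 3 libraries of p53-WT cells, a derived line in which a lentiviral cassette makes wild-type p53 with doxycycline; the labels give both groups 16 h of induction. Nothing in the labels says whether libraries of a group came from separate cultures, so the p-values measure only the spread between these libraries, which may be technical.

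Total counts ran from 17762027 to 24629558 per library. CDKN1A, a direct target of p53, stood at 56.8 to 79.3 CPM (counts scaled to a common library size) in the p53-null libraries and at 7935 to 9004 CPM in the p53-WT libraries. Replicate 1 of both groups labelled Saos-2 lay apart from replicates 2 and 3: the chi-square of the counts of 2 same-group libraries, divided by its degrees of freedom, was 23.6 to 39.9 in pairs with a replicate 1 and 3.43 to 4.25 in pairs without it. Several defining markers went against both line labels. In the libraries labelled Saos-2, the osteoblast genes SP7, IBSP, ALPL and BGLAP stayed at or below 0.53 CPM and COL1A1 at or below 1.84 CPM. RUNX2, the osteoblast lineage factor, stood at 8.49 to 12.1 CPM in p53-null and 4.15 to 6.05 CPM in p53-WT. The keratin gene KRT18 stood at 402 to 558 CPM in these libraries. The 8 osteoblast markers together reached 26.2 to 27.6 CPM in p53-null, where SPP1 stood at 13.45 to 17.45 CPM. They reached 42.2 to 50.3 CPM in p53-WT, most of it from SPP1, and 58.0 to 63.7 CPM in TOV-112D, most of it from COL1A1. In the TOV-112D libraries, KRT18 was at 0, KRT8 at or below 0.51 CPM and the 8 epithelial markers together at 4.07 to 6.47 CPM, against 723 to 1090 CPM in the libraries labelled Saos-2, most of it from KRT8 and KRT18. The epithelial genes EPCAM and CDH1 went the other way: EPCAM stood at 1.80 to 3.09 CPM and CDH1 at 0.821 to 1.80 CPM in TOV-112D, against at most 0.0997 and 0.263 CPM in the libraries labelled Saos-2. The part of line identity in the results was not tested, and the line names are used here only as labels.

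The promoters were read first, since heat shock elements are the best known switch of this family. RefSeq gave sequences of 300 bases (250 before and 50 after a transcript start, GRCh38.p14) for 8 of the 9 members, with 14 start sites between them; FKBP4 was not matched. A heat shock element of 3 alternating units (GAANNTTCNNGAA or its reverse complement TTCNNGAANNTTC, so both strands are covered) was found in 3 of these 14 windows, 1 each of HSP90AA1, HSP90AB1 and CHORDC1, and is held by 0.49% of all 35116 promoter windows of this length and by 0.349% of the 15454 windows of genes tested in TOV-112D. A shorter pair of units (GAANNTTC or TTCNNGAA), which lies inside every 3-unit match, was found in 4 of the 14 windows, the other one being of STIP1, 13 bases after a start, and is held by 13.5% of all windows and by 1617 of the 15454 of genes tested in TOV-112D. The stretches that hold the 3-unit matches, each before the start of its own window, are shown for all 3 genes. CHORDC1 and HSP90AA1 had the highest fold changes of the members after the compounds. HSP90AB1 had the lowest of the 7 members that rose, though with UCI-1014 PTGES3 was close (log2 1.12 against 1.17). The stretches are printed 5′ to 3′ on the strand of the gene, with the bases of every 2-unit or 3-unit match in capitals.
HSP90AA1, chr14:102087093-102087144, minus strand: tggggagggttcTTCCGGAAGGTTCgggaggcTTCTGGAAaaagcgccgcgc
HSP90AB1, chr6:44247766-44247855, plus strand: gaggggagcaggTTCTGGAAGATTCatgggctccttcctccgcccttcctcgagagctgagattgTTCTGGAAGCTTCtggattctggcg
CHORDC1, chr11:90223053-90223121, minus strand: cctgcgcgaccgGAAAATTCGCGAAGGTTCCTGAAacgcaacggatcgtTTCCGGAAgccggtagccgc

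The layout of the matches differed between the 3 genes. HSP90AA1 had 1 match of 3 units at position -88 from the start and a separate pair of units at -68, at 1 of its 2 listed starts. HSP90AB1 had 2 matches of 3 units, at -165 and -112, at 1 of its 3 starts. The printed stretches of HSP90AA1 and HSP90AB1 lie inside the annotated spans of these genes, after their other listed starts. The windows of those other starts held no match. In CHORDC1 the 3-unit matches at -60, -55 and -50 overlap in a single unbroken run of alternating units, a further pair lies at -23, and another outside the printed stretch at -205. No 2-unit match was found in the windows of AHSA1, FKBP5, CDC37 or PTGES3, which says only that these letters are not in those windows. A match is a description of the sequence and not evidence that a factor bound there.

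Levels of different genes were compared in TPM (transcripts scaled to a common total), a unit that accounts for transcript length. In DMSO-treated TOV-112D the order was HSP90AB1 at 2083 ± 7.4 TPM (SD, n = 2), HSP90AA1 at 1202 ± 9.17, PTGES3 at 533 ± 5.71, AHSA1 at 255 ± 13.5, STIP1 at 236 ± 9.54, CDC37 at 216 ± 2.03, FKBP4 at 128 ± 2.16, FKBP5 at 76.1 ± 0.082 and CHORDC1 at 57.7 ± 9.89 TPM. No neighbours in that order overlapped between libraries, though AHSA1 and STIP1 came close, at 246 to 265 and 229 to 242 TPM. In p53-null cells the order began with HSP90AA1 at 2754 ± 283 TPM (SD, n = 3), followed by HSP90AB1 at 1897 ± 175.1, PTGES3 at 881 ± 23.9, AHSA1 at 513 ± 11.7, STIP1 at 407 ± 24.9, CDC37 at 280 ± 24.7, FKBP4 at 124 ± 10.1, CHORDC1 at 93.6 ± 5.51 and FKBP5 at 19.8 ± 2.4 TPM, again without overlap between neighbours. So HSP90 transcripts outweighed those of each cochaperone in both lines, and the places of the 2 HSP90 genes and of the 2 lowest genes were exchanged. In p53-null cells, transcripts with a retained intron held 26%, 26.3% and 19.6% of AHSA1 TPM, against 9.38% and 3.6% in DMSO. Counting only its main protein-coding transcript, AHSA1 stood at 344.7, 357.2 and 375.4 TPM in p53-null cells. That of STIP1 stood at 372.9, 417.7 and 401.7 TPM, above AHSA1 in each library. In DMSO these transcripts were at 231.1 and 224.1 TPM for AHSA1 and 231.1 and 214 TPM for STIP1.

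The baseline difference between the lines was tested on counts in a fit of all 12 libraries. Of the 9 members, 7 were lower in DMSO-treated TOV-112D than in p53-null cells and FKBP5 was higher, against a background of 37% of the 16811 genes called lower and 37% called higher. HSP90AA1 was lower by a log2 difference of -1.44 ± 0.09 (SE), STIP1 by -1.11 ± 0.08, AHSA1 by -1.09 ± 0.08, PTGES3 by -1.03 ± 0.18, CHORDC1 by -0.97 ± 0.12 and CDC37 by -0.67 ± 0.08. FKBP5, an immunophilin that lowers the hormone affinity of the glucocorticoid receptor, was 3.2-fold higher (log2 1.68 ± 0.07, adjusted p = 4.87e-10). FKBP4, its relative that favours receptor activity, was lower by only -0.18 ± 0.07 (adjusted p = 0.0325), a call that 7 of 13 alternatives lost. In TPM its mean went the other way, at 128 in DMSO against 123.5 in p53-null, and the ranges overlapped. HSP90AB1 did not pass (-0.14 ± 0.06, adjusted p = 0.0509, 95% interval -0.28 to -0.01). Its TPM were higher in DMSO, at 2078.1 to 2088.5 against 1695.7 to 2009.5 in p53-null, so its direction depended on the unit. The lines differ in origin, medium, treatment, time and p53 state, which cannot be told apart here.

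After 3 h of UCI-1001, 7 of the 9 members rose and none fell, against a background of 7.74% of 14988 genes called higher and 5.22% called lower. At an unadjusted p under 0.05 FKBP5 was also lower, and DESeq2 called 7 members higher and 0 lower. The median log2 fold change of the members was 0.53, and of all genes tested -0.0025. CHORDC1 rose 2.76-fold and HSP90AA1 2.13-fold, AHSA1, FKBP4, STIP1, PTGES3 and HSP90AB1 rose less, and FKBP5 and CDC37 did not pass the test. With UCI-1014 the same 7 members rose further, FKBP5 fell slightly, and CDC37 again did not pass: the backgrounds were 22.7% called higher and 21.5% lower, and the medians 1.29 for the members and -0.013 for all genes. Together the 9 members took 0.764% and 0.768% of all counts in the DMSO libraries, 1.19% and 1.25% with UCI-1001 and 2.17% and 2.08% with UCI-1014.

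**Figure D1:**
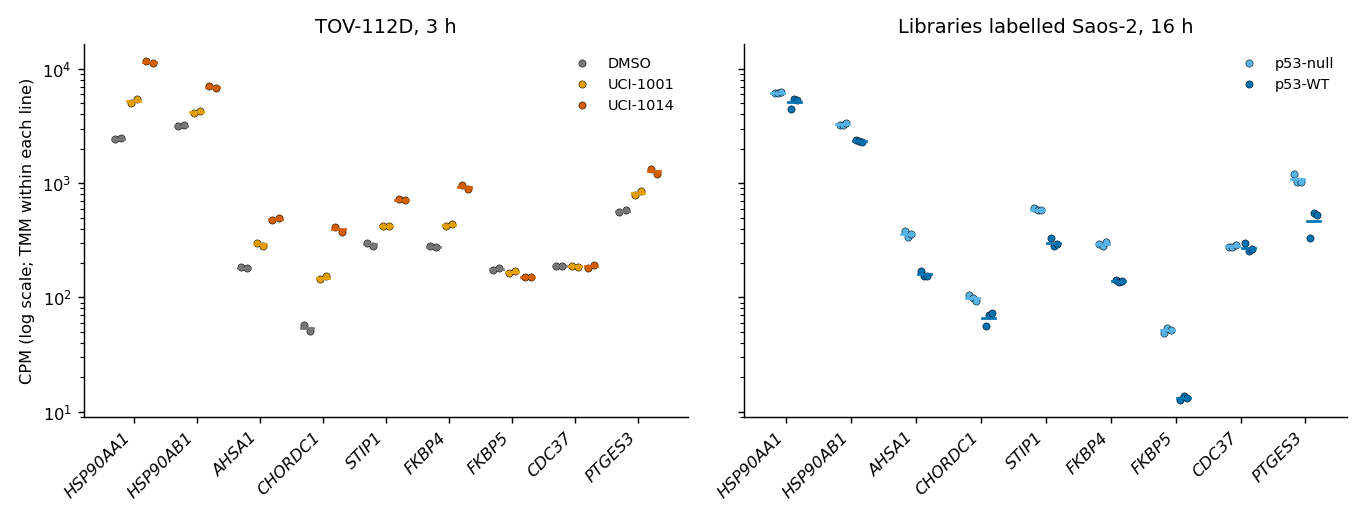
CPM of the 9 members in each library (points, log axis) with the group mean (bar), in TOV-112D on the left and in the libraries labelled Saos-2 on the right. CDC37 stays between 182 and 191 CPM in all 6 TOV-112D libraries, while CHORDC1 goes from 51.0 and 57.0 CPM in DMSO to 376 and 414 CPM with UCI-1014.

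HSP90AA1, the stress-inducible HSP90, was counted at 2441 and 2473 CPM in the DMSO libraries, at 5022 and 5453 CPM with UCI-1001 and at 11763 and 11179 CPM with UCI-1014. The groups formed 3 separate steps, with no overlap. The log2 fold change was 1.09 ± 0.04 (SE, adjusted p = 2.06e-07) for UCI-1001 and 2.22 ± 0.04 (adjusted p = 3.42e-10) for UCI-1014, a 4.67-fold rise. HSP90AB1, the constitutive form, stood at 3164 and 3223 CPM in DMSO, at 4151 and 4272 CPM with UCI-1001 and at 7061 and 6867 CPM with UCI-1014. Its steps were smaller, a log2 fold change of 0.40 ± 0.03 (adjusted p = 1.73e-05) and of 1.12 ± 0.03 (adjusted p = 1.82e-09), and its groups did not overlap either.

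The unequal steps reversed the balance of the 2 HSP90 genes. Per length, HSP90AA1 stood at 0.579 and 0.575 of HSP90AB1 in the DMSO libraries, at 0.914 and 0.96 with UCI-1001 and at 1.25 and 1.22 with UCI-1014. In the p53-null libraries, which had no compound, the ratio of TPM was already 1.43, 1.44 and 1.48, and it was 1.61, 1.8 and 1.8 in p53-WT. The lowest of the p53-WT ratios belonged to replicate 1. In that library a short transcript of 581 bases, HSP90AA1-203, carried 15.5% of the HSP90AA1 TPM, which raised its ratio. This share was 4.53% and 2.75% in the other p53-WT libraries, 0.689%, 2.67% and 6.27% in p53-null and 0.157% to 0.599% in TOV-112D. With only the main transcript of each gene, HSP90AA1 stood at 1404 TPM and HSP90AB1 at 1034 TPM in p53-WT replicate 1. That ratio was below each p53-null ratio (2394 over 1682, 2793 over 1989 and 2732 over 1969 TPM). The other p53-WT libraries stayed above the p53-null ratios, at 2139 over 1246 and 2111 over 1202 TPM.

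**Figure D2:**
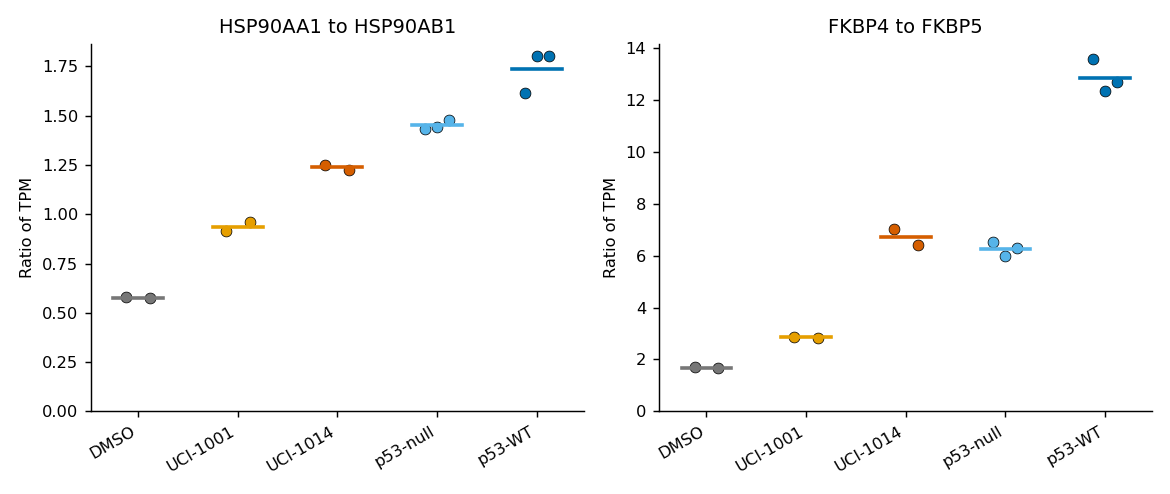
Ratio of TPM between the 2 cytosolic HSP90 genes (left) and between the immunophilins FKBP4 and FKBP5 (right), with 1 point per library and a bar at the group mean. The HSP90AA1 to HSP90AB1 ratio is below 1 in all DMSO and UCI-1001 libraries and above 1 in all others, and the FKBP4 to FKBP5 ratio goes from 1.66 and 1.7 in DMSO to 6.41 and 7.03 with UCI-1014.

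CHORDC1, a zinc-binding cochaperone related in part to SUGT1, had the highest fold change of the members after both compounds. It was counted at 57.0 and 51.0 CPM in DMSO, at 145 and 153 CPM with UCI-1001 and at 414 and 376 CPM with UCI-1014. The log2 fold changes were 1.46 ± 0.07 (adjusted p = 9.55e-07) and 2.87 ± 0.06 (adjusted p = 8.04e-10), and it ranked 158th and 110th by log2 fold change among the 14988 genes tested. The gene is listed under 2 identifiers whose counts were equal in all 12 libraries. All 11 annotated CHORDC1 transcripts with reads had a mirror copy of equal length and equal estimates, so the sum of both rows was used. Transcripts annotated as targets of nonsense-mediated decay made up 15% and 11.7% of CHORDC1 TPM in DMSO, 31.7% and 20.7% with UCI-1001 and 28.9% and 29.4% with UCI-1014. These shares are a description of estimated counts and were not tested.

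AHSA1, which speeds up the ATPase cycle of HSP90, stood at 183 and 181 CPM in DMSO, at 300 and 283 CPM with UCI-1001 and at 472 and 493 CPM with UCI-1014. The groups did not overlap, with log2 fold changes of 0.68 ± 0.04 (adjusted p = 7.47e-06) and 1.41 ± 0.04 (adjusted p = 5.19e-09). PTGES3, which steadies the closed, ATP-bound form of HSP90, went from 559 and 580 CPM to 781 and 854 CPM and then to 1342 and 1214 CPM, with log2 fold changes of 0.52 ± 0.05 (adjusted p = 2.10e-04) and 1.17 ± 0.05 (adjusted p = 1.08e-07). When all 12 libraries shared a spread, the rise of PTGES3 with UCI-1001 no longer passed (0.50 ± 0.19, adjusted p = 0.304 with edgeR and 0.152 with DESeq2). AHSA1 overlaps exons of VIPAS39 on the other strand by up to 83 bases, HSP90AA1 those of WDR20 by up to 197 bases and STIP1 those of a long noncoding RNA by up to 445 bases, and whether the libraries kept strand is not given in the sources used here.

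STIP1, the adaptor that bridges HSP70 and HSP90, was counted at 301 and 284 CPM in DMSO, at 421 and 425 CPM with UCI-1001 and at 724 and 706 CPM with UCI-1014. It rose by 0.53 ± 0.04 (adjusted p = 1.79e-05) and 1.29 ± 0.04 (adjusted p = 4.56e-09) on the log2 scale. CDC37, which brings kinases to HSP90, did not follow: it stood at 189 and 190 CPM in DMSO, at 190 and 186 CPM with UCI-1001 and at 182 and 191 CPM with UCI-1014. Its groups overlapped, and the intervals of its log2 fold change ran from -0.10 to 0.07 and from -0.11 to 0.06 (adjusted p = 0.87 and 0.676), so a change as large as that of any rising member lies outside them. Scaling by total counts alone gave CDC37 a log2 fold change of -0.16 with UCI-1014 (adjusted p = 0.00551), but that scaling also moved the median of all genes to -0.15.

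The 2 steroid receptor immunophilins moved apart. FKBP4 was counted at 279 and 277 CPM in DMSO, at 425 and 440 CPM with UCI-1001 and at 958 and 889 CPM with UCI-1014, a rise of 0.64 ± 0.04 (adjusted p = 1.12e-05) and of 1.73 ± 0.04 (adjusted p = 1.41e-09) on the log2 scale. FKBP5 stood at 175.1 and 179 CPM in DMSO, at 162 and 170 CPM with UCI-1001 and at 150.2 and 149.5 CPM with UCI-1014. The groups of FKBP5 did not overlap, but its differences were small: -0.10 ± 0.04 (adjusted p = 0.143) with UCI-1001, which did not pass, and -0.24 ± 0.04 (adjusted p = 6.68e-04) with UCI-1014. Per length, the ratio of FKBP4 to FKBP5 was 1.7 and 1.66 in DMSO, 2.85 and 2.84 with UCI-1001 and 7.03 and 6.41 with UCI-1014. FKBP4 overlaps exons of the antisense RNA ITFG2-AS1 by up to 187 bases.

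The compounds were also compared directly in the same fit, as libraries whose doses may differ. Between UCI-1014 and UCI-1001, 7 members were higher, FKBP5 was lower and CDC37 did not pass, against 16.2% of genes called higher and 11.5% called lower. CHORDC1 differed most, by a log2 difference of 1.40 ± 0.06 (2.65-fold, adjusted p = 2.41e-07), followed by HSP90AA1 at 1.13 ± 0.04, FKBP4 at 1.09 ± 0.04, STIP1 at 0.76 ± 0.04, AHSA1 and HSP90AB1 both at 0.73, and PTGES3 at 0.64 ± 0.05, a call lost with all 12 libraries in a single fit (adjusted p = 0.0898). The difference of FKBP5 was -0.15 ± 0.04 (adjusted p = 0.0208), and 6 of 15 alternatives lost the call, with adjusted p from 0.0567 to 0.237 and with the libraries UCI-1001 2, UCI-1014 1 and UCI-1014 2 each able to end it when left out. For CDC37 the interval of the difference was -0.09 to 0.08. Both compounds were set against the same DMSO libraries, so their values are given side by side and no likeness between them was computed.

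In p53-WT cells 8 of the 9 members were lower than in p53-null cells and none was higher, against a background of 32.1% of 15080 genes called lower and 32.9% called higher. The unadjusted p under 0.05 and DESeq2 each gave 8 lower and 0 higher. The median log2 fold change was -0.96 for the members and -0.014 for all genes. FKBP5 fell most, 3.92-fold, PTGES3, AHSA1 and FKBP4 fell more than 2-fold, STIP1, CHORDC1 and HSP90AB1 fell less, and HSP90AA1 barely passed. The 7 members that rose with the compounds thus went the opposite way here, while FKBP5 fell with UCI-1014 as well. Without replicate 1 of both groups, a choice made after seeing the data, 8 members were still called. The share of all counts taken by the 9 members was 1.25% to 1.31% in p53-null and 0.756% to 0.894% in p53-WT.

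FKBP5 was counted at 49.2, 53.4 and 52.0 CPM in the p53-null libraries and at 12.5, 13.7 and 13.2 CPM in the p53-WT libraries. The groups lay far apart, with a log2 fold change of -1.97 ± 0.10 (SE, 3.92-fold lower, adjusted p = 1.29e-07). FKBP4 stood at 293, 283 and 305 CPM and at 142, 138 and 140.1 CPM, a log2 fold change of -1.07 ± 0.09 (adjusted p = 4.47e-06). Both immunophilins therefore fell here, unlike after the compounds, and the ratio of FKBP4 to FKBP5 went from 5.97 to 6.53 up to 12.3 to 13.5.

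PTGES3 was at 1197, 1031 and 1022 CPM in p53-null and at 330, 547 and 525 CPM in p53-WT. The p53-WT replicate 1 is well below the other p53-WT libraries, and the log2 fold change was -1.21 ± 0.18 (adjusted p = 2.16e-04) with all libraries and -0.93 ± 0.05 (adjusted p = 1.44e-07) without both replicates 1. AHSA1 went from 383, 339 and 361 CPM to 171, 153 and 154 CPM (-1.18 ± 0.10, adjusted p = 4.58e-06). STIP1 went from 603, 579 and 578 CPM to 328, 284 and 294 CPM (-0.96 ± 0.10, adjusted p = 1.75e-05). The groups of both genes did not overlap.

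CHORDC1, the strongest riser after the compounds, showed a moderate decrease with p53-WT: 105, 98.0 and 93.2 CPM against 55.7, 69.4 and 72.7 CPM, a log2 fold change of -0.58 ± 0.12 (adjusted p = 0.00202). HSP90AB1 stood at 3229, 3265 and 3362 CPM and at 2406, 2350 and 2300.2 CPM (-0.48 ± 0.09, adjusted p = 9.88e-04). HSP90AA1 stood at 6147, 6139 and 6279 CPM and at 4476, 5423 and 5401 CPM, so that replicate 1 of p53-WT was again the lowest. Its log2 fold change of -0.28 ± 0.11 passed with an adjusted p of 0.0397, 8 of 17 alternatives lost the call with adjusted p from 0.0517 to 0.13, and leaving out any of the 3 p53-null libraries or p53-WT replicate 2 or 3 was enough to lose it. Without both replicates 1 it was -0.19 ± 0.04 (adjusted p = 0.00209). CDC37 overlapped between the groups, at 276, 277 and 287 CPM against 297, 253 and 264 CPM (-0.04 ± 0.10, adjusted p = 0.719, 95% interval -0.27 to 0.18).

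**Figure D3:**
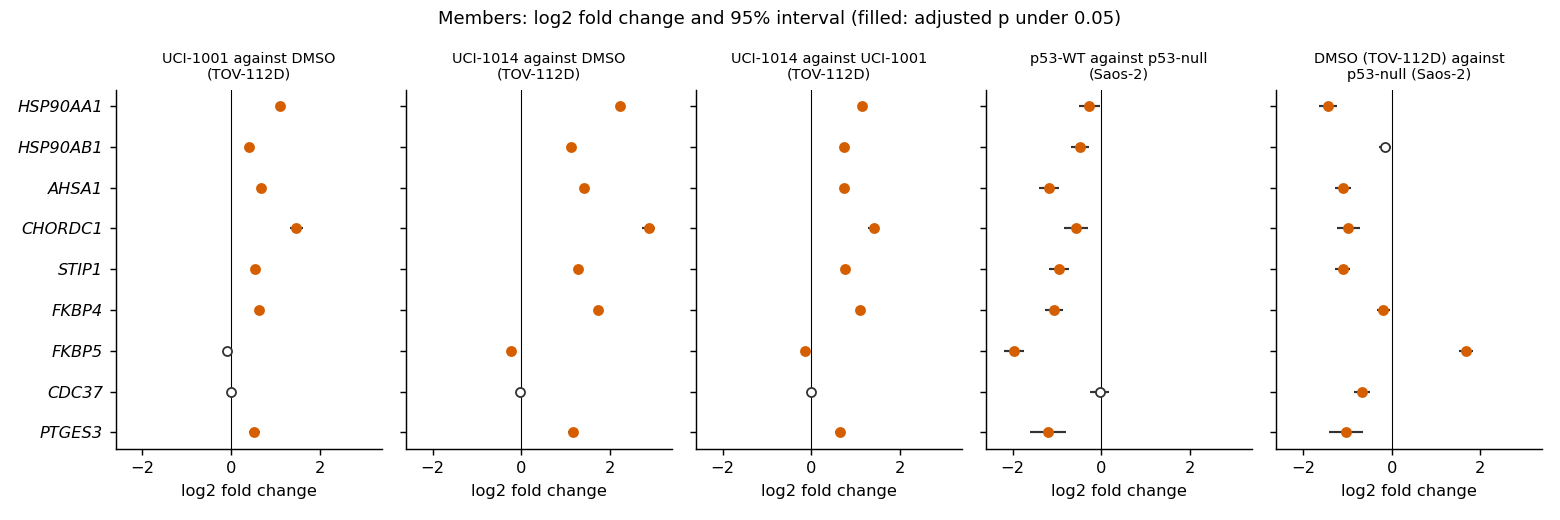
Log2 fold change of each member (points) with its 95% interval (lines) in the 5 comparisons, from edgeR's quasi-likelihood test; filled points have an adjusted p under 0.05. The 7 members that rose with the compounds lie to the right of 0 in the panels of UCI-1001 and UCI-1014 and to the left of 0 in the panel of p53-WT.

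The other genes of the pathway were taken from lists (the pathway lists, which do not include the marker genes). HSP90B1 and TRAP1, the HSP90 forms of the endoplasmic reticulum and of mitochondria, did not pass with UCI-1014, at 0.04 ± 0.03 and 0.0035 ± 0.04 on the log2 scale (adjusted p = 0.317 and 0.951). In p53-WT, HSP90B1 fell, by -0.79 ± 0.10 (adjusted p = 6.23e-05), and TRAP1 was at -0.21 ± 0.11 (adjusted p = 0.122).

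Of 28 other cochaperones, 25 were tested in TOV-112D. With UCI-1001, 9 of them rose and 16 did not pass, with a median of 0.072 (9 higher and 0 lower at an unadjusted p under 0.05, 8 and 0 by DESeq2), and with UCI-1014, 13 rose, 5 fell and 7 did not pass, with a median of 0.24. The background was 7.74% higher and 5.22% lower with UCI-1001 and 22.7% higher and 21.5% lower with UCI-1014. FNIP1, a brake on the HSP90 ATPase cycle, was among the 3 largest rises with UCI-1014 over the pathway lists: it stood at 46.3 and 48.2 CPM in DMSO, at 76.1 and 83.9 CPM with UCI-1001 and at 185 and 169 CPM with UCI-1014 (1.91 ± 0.06, adjusted p = 9.55e-09), and at -0.30 ± 0.14 with p53-WT (adjusted p = 0.0956). FKBPL, an immunophilin-like relative, was among the 3 largest falls over them, with 7.83 and 5.53 CPM in DMSO and 3.95 and 3.69 CPM with UCI-1014 (-0.81 ± 0.23, adjusted p = 0.0146). In the libraries labelled Saos-2, 26 were tested, 6 rose, 10 fell and 10 did not pass with p53-WT, with a median of -0.19, beside 32.9% of all genes called higher and 32.1% lower. The highest of 3 FKBPL identifiers tested there fell as well, from 12.8 to 16.2 CPM down to 2.38 to 3.71 CPM (-2.27 ± 0.19, adjusted p = 3.70e-06). The others are not given here, so this is not the change of the whole gene. FKBPL is listed under several identifiers, of which 1 was tested in TOV-112D and 3 in the libraries labelled Saos-2. The highest of them differed between the lines, so FKBPL was not compared between the lines. UNC45B, a myosin chaperone, had a single count over the 3 p53-null libraries and 52 to 64 counts in each p53-WT library, a ratio of 153 with an exact 95% interval of 27.0 to 6063 for counting error.

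Heat shock factor transcripts were not called higher with either compound. The list held HSF1, HSF2 and HSF4 and also HSBP1, which is not itself a heat shock factor. Of these 4 genes, 3 fell with UCI-1014, with a median of -0.48, and 0 passed with UCI-1001, where 1 was lower at an unadjusted p under 0.05 and DESeq2 called 0. HSBP1 was 1 of the 3 that fell with UCI-1014, at -0.21 ± 0.04 (adjusted p = 0.00246). With UCI-1014, the unadjusted p gave 3 lower and 0 higher, and DESeq2 2 lower and 0 higher, beside 22.7% of all genes called higher and 21.5% lower. With UCI-1001 those shares were 7.74% and 5.22%. HSF1, the main activator, stood at a log2 difference of -0.07 ± 0.05 (adjusted p = 0.3) with UCI-1014, and HSF2 fell by -0.75 ± 0.09 (adjusted p = 8.51e-05). HSF4, at 1.85 and 1.68 CPM in DMSO and 1.08 and 0.821 CPM with UCI-1014, was low throughout (-0.90 ± 0.32, adjusted p = 0.0436). With p53-WT, HSF1 rose by 0.66 ± 0.12 (adjusted p = 6.18e-04) and HSF2 fell by -0.75 ± 0.11 (adjusted p = 1.92e-04).

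The medians of the client lists lay nearer to 0 than that of the members after the compounds. Of 19 kinase clients tested in TOV-112D, 1 rose and 1 fell with UCI-1001, and 7 rose and 4 fell with UCI-1014, with a median of 0.087 and a range of -0.42 to 0.76. Over all genes, 7.74% were called higher and 5.22% lower with UCI-1001, and 22.7% and 21.5% with UCI-1014. Of the 3 receptors and other transcription factors reported here, which are not the whole list, 0 passed with UCI-1001 (0 also at an unadjusted p under 0.05 and by DESeq2), and with UCI-1014 all 3 rose (2 by DESeq2). NR3C1, the glucocorticoid receptor, rose by 0.36 ± 0.11 with UCI-1014 (adjusted p = 0.0203). AHR, the aryl hydrocarbon receptor, rose by 0.91 ± 0.20 (adjusted p = 0.00381) and HIF1A, a factor of the hypoxia response, by 0.14 ± 0.04 (adjusted p = 0.0153), a size near that by which total-count scaling moves the median gene.

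With p53-WT, 8 kinases rose and 5 fell among 19 tested, beside 32.9% and 32.1% of all genes, and of 4 transcription factors reported here NR3C1, AHR and HIF1A rose and NR3C2, the mineralocorticoid receptor, fell (-1.41 ± 0.18, adjusted p = 7.00e-05). FGFR3, a growth factor receptor kinase, was among the 3 largest rises over the pathway lists, from 1.66, 1.71 and 1.36 CPM to 165, 140.4 and 149.9 CPM (6.59 ± 0.15, adjusted p = 3.71e-09); with UCI-1014 it was at -0.12 ± 0.11 (adjusted p = 0.417). PLK1, a kinase of mitosis, was the largest fall over them, from 214, 212 and 217 CPM to 21.1, 18.1 and 16.4 CPM (-3.53 ± 0.12, adjusted p = 1.60e-08), and was at 0.02 ± 0.05 with UCI-1014 (adjusted p = 0.813). CHEK1, a checkpoint kinase, fell from 66.0 to 68.3 CPM down to 14.7 to 19.9 CPM (-1.90 ± 0.13, adjusted p = 1.02e-06) with p53-WT, and rose by 0.32 ± 0.07 with UCI-1014 (adjusted p = 0.00285).

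FKBP5 is itself a well known target of the glucocorticoid receptor, so other such targets were read beside it. With UCI-1014, 7 of 8 tested rose and MT2A fell, with a median of 1.18, and with UCI-1001 4 rose and 4 did not pass, beside 22.7% of all genes called higher and 21.5% lower with UCI-1014 and 7.74% higher with UCI-1001. TSC22D3, which encodes the glucocorticoid-induced leucine zipper, went from 12.2 and 11.8 CPM in DMSO to 23.0 and 24.7 CPM with UCI-1001 and to 54.3 and 49.1 CPM with UCI-1014 (2.11 ± 0.08, adjusted p = 2.70e-08). DUSP1, a MAP kinase phosphatase, went from 10.8 and 10.4 CPM to 29.2 and 39.5 CPM and to 52.5 and 33.9 CPM (2.02 ± 0.22, adjusted p = 3.71e-05), and its libraries with UCI-1001 and UCI-1014 overlapped. FKBP5 fell with UCI-1014 and did not pass with UCI-1001. MT2A, a metallothionein, stood at 9.84 and 9.26 CPM in DMSO and at 5.63 and 4.77 CPM with UCI-1014 (-0.88 ± 0.19, adjusted p = 0.00322). With p53-WT, 5 of 7 tested targets rose and ERRFI1 fell, with a median of 1.01 and beside 32.9% of all genes called higher and 32.1% lower, and CRISPLD2 went from 0.738, 0.332 and 0.789 CPM to 104, 96.7 and 107 CPM (7.35 ± 0.20, adjusted p = 7.40e-09).

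**Figure D4:**
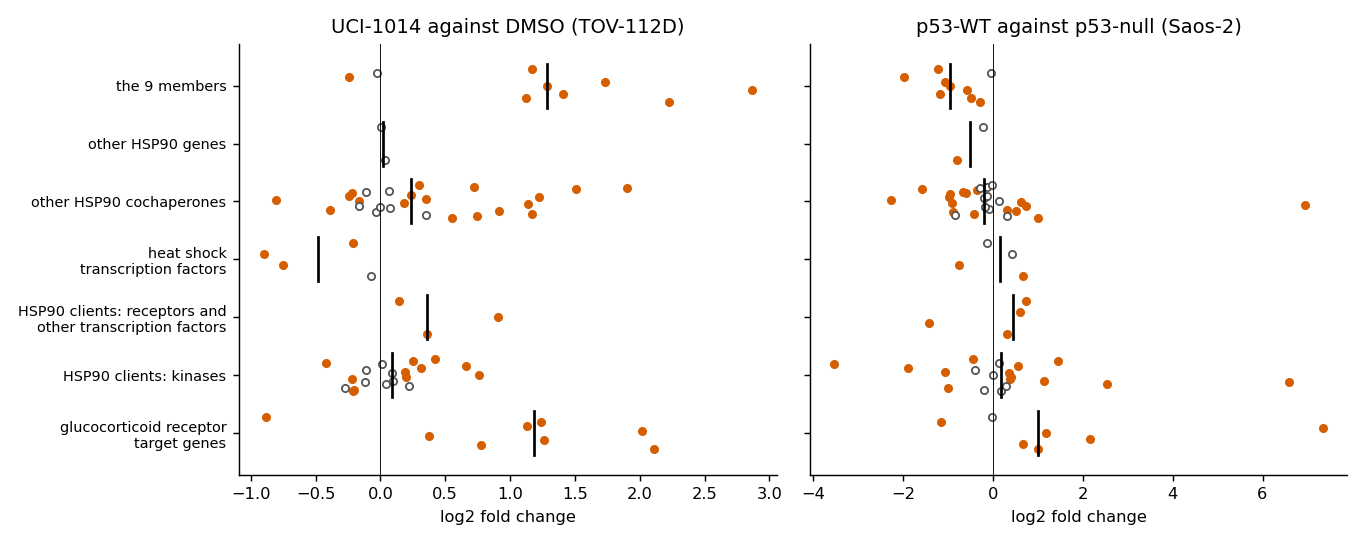
Log2 fold change of each tested gene of the lists (points, filled where the adjusted p is under 0.05) with the list median (bar), for UCI-1014 against DMSO (left) and p53-WT against p53-null (right). The median of the 9 members is 1.29 on the left and -0.96 on the right, and that of the other cochaperones 0.24 and -0.19.

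Across the 12 libraries, the members split by their pattern. AHSA1 and STIP1 had a Pearson correlation of 0.974 on log2(CPM + 1), HSP90AB1 and FKBP4 of 0.99, and CDC37 and FKBP5 of -0.841. HSP90AA1 correlated with HSP90AB1 at only 0.598. The points are 12 libraries in 5 groups of 2 lines, so these values describe the groups and carry no test. Of 13200 genes tested in both lines, those most like HSP90AA1 outside the family were TAF7 (0.967), HIST1H2BN, TXNRD1 and ASNS (all 0.96) and NFE2L2 (0.956). Those most like HSP90AB1 were ADIPOR2 (0.993), SIAH2 (0.984), PCK2 (0.982), OXTR (0.981) and STC2 (0.98). FKBP5 was closest to NAV3, WDHD1, TMCO3, EMP2 and SMC1A (0.997 to 0.998), genes that, like it, were higher in DMSO-treated TOV-112D than in p53-null and lower in p53-WT.

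Per length, the order of the members in the treated groups can be set against the baseline. With UCI-1014, HSP90AA1 led at 5487 ± 256 TPM (SD, n = 2) over HSP90AB1 at 4431 ± 136, and CHORDC1, last in DMSO, reached 424 ± 13.6 TPM, which overlapped FKBP4 at 421 ± 33 TPM. FKBP5 was then last, at 62.6 ± 0.831 TPM. In p53-WT, HSP90AA1 was at 2039 ± 315 TPM (SD, n = 3), HSP90AB1 at 1168 ± 113, PTGES3 at 340 ± 109 and CDC37 at 230 ± 8.99 TPM, with PTGES3 and CDC37 overlapping. AHSA1 at 196 ± 19.8 overlapped STIP1 at 179 ± 7.99, CHORDC1 at 55.9 ± 3.56 overlapped FKBP4 at 55.4 ± 6.14, and FKBP5 was last at 4.33 ± 0.67 TPM.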

How the data were processed

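Total RNA of 12 libraries was quantified by the authors with kallisto 0.48.0 against GRCh38. Per the study's methods and the file headers, the authors added the estimated counts of transcripts with the same Ensembl gene and made the sums integers, which gave the deposited gene counts. The deposited transcript TPM are kallisto's, scaled by transcript length and library total. Other details of strand and trimming are not given in the sources used here. The authors tested with DESeq2 1.38.3.

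Here, rows of each member were summed by symbol and all other rows kept. Counts were tested with edgeR 4.0.16 (R 4.3.3): TMM scaling, filterByExpr, glmQLFit and glmQLFTest, two-sided, Benjamini-Hochberg adjusted over all genes tested, called at adjusted p under 0.05. Each line had its own fit; the baseline comparison used all 12 libraries. The fit was also run on simulated counts with the same spread for every gene and few changed genes. These data are less simple than that, so the run is not used as support here. CPM are on the TMM scale within a line. TPM of transcripts were summed per member. Named list genes are the 3 largest rises and 3 largest falls among called genes of the pathway lists (markers aside) whose mean reached 1 CPM, for UCI-1014 and for p53-WT; of identifiers sharing a symbol the highest was used. The members, lists and tests were chosen with earlier results of these data known. Some genes of the client list are not reported here and were left out of its counts. Gene overlaps came from GENCODE, promoters from RefSeq. Alternatives were DESeq2 1.42.0, total-count scaling, no filter, joint fits, symbols summed, pseudogene reads added, a transcript length offset, a replicate block and each library left out. Reads in pseudogenes of a member came to at most 0.0317% of its counts. No library was dropped from the main fits.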

Additional observations from a re-analysis of the deposited data

How the results depend on the processing

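Refits of all genes gave 657 alternative values for the members (9 members in 5 comparisons), and values from a shared fit are not independent. Of these, 626 kept direction and side of the threshold, 24 lost a call, 4 gained one and 3 changed sign. All 3 sign changes were of CDC37, which was not called in the fits as reported; under total-count scaling it was called for UCI-1014 against DMSO (adjusted p = 0.00551) and against UCI-1001 (adjusted p = 0.0215). With a library left out its log2 fold change ran from -0.0613 to 0.0112 for UCI-1014 against DMSO and from -0.0519 to 0.0244 against UCI-1001, above 0 without UCI-1014 replicate 1, and from -0.121 to 0.014 for p53-WT, above 0 without p53-WT replicate 2. The counts of members called stayed within 1.5 times of the main ones in every alternative: 6 to 8 for UCI-1001, 8 to 9 for UCI-1014, 6 to 9 between the compounds, 7 to 8 for p53-WT and 7 to 9 for the baseline. The calls that moved were PTGES3 with UCI-1001 and between the compounds, FKBP5 between the compounds, HSP90AA1 with p53-WT, FKBP4 and HSP90AB1 at baseline and CDC37; the cause was not tested.

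The deviations of same-numbered libraries correlated at 0.0098, -0.051 and -0.115 in TOV-112D. In Saos-2 the correlations were all positive, at 0.133, 0.102 and 0.024, but the last was not over 0.1, so the numbers were not taken as pairs. With the replicate block, 7 members were called for UCI-1001, 8 for UCI-1014, 8 between the compounds and 8 for p53-WT, and over all genes 1450, 6212, 3641 and 10091 were called against 1942, 6627, 4151 and 9798 without it. In Saos-2, p53-WT replicate 3 correlated best with p53-null replicate 2, so not every library was closest to its own number. Crossed numbers between UCI-1001 and UCI-1014 gave 8 members and 4601 genes.

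Total-count scaling moved the median log2 fold change of all genes to -0.15 (UCI-1014), -0.13 (between the compounds) and -0.16 (p53-WT), and the genes called to 2395 higher and 5594 lower (main 3409 and 3218), 1505 and 4409 (2432 and 1719) and 4159 and 5769 (4958 and 4840). Genes called for UCI-1001 fell from 1942 to 292 with all 12 libraries in a single fit (447 with DESeq2), to 659 with the length offset and to 710, 782 and 856 without DMSO replicate 1, DMSO replicate 2 or UCI-1001 replicate 2. For UCI-1014 they fell from 6627 to 3374 (3477 with DESeq2) in the single fit and to 3948 with the offset, and between the compounds from 4151 to 868 (1239), 1942 and, without UCI-1001 replicate 1, 2644. The length offset was fitted on fewer genes (12009 in TOV-112D). Without the offset, those genes gave 1801 calls for UCI-1001, 5579 for UCI-1014 and 3610 between the compounds. With 2 or 3 libraries a group, the spread rests on few values, and a lone library left in a group is assumed to vary like the others.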
